A study of Mus musculus with 6 samples.

Results

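Receptor tyrosine kinases, a few related receptors, and the growth factors that bind them were examined as a set of 45 mouse genes, 25 receptors and 20 ligands, out of the 53700 identifiers in the expression table. The genes were taken by symbol, and where a symbol had more than 1 identifier (only Nrg1) the identifier with the highest mean level was kept. RNA-seq libraries had been made from SL4, a luciferase-expressing mouse CRC cell line. The control group, pLV-Control, holds 3 libraries of SL4 cells without SEMA6A overexpression, and the pLV-SEMA6A group holds 3 libraries of SL4 cells given a lentivirus for stable overexpression of SEMA6A, a transmembrane semaphorin. No independently made pLV-SEMA6A lines are described, so a change with SEMA6A and a difference between cell lines cannot be told apart. Whether the sequenced control cells carried an empty lentivirus is not given in the sources used here. The labels do not say that the 3 libraries of a group came from separate cultures, so p-values measure the spread between these libraries, which may be technical.

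A receptor tyrosine kinase spans the plasma membrane and is switched on by its ligand, in many cases by pairing with a second receptor. It then phosphorylates tyrosines that recruit adaptor proteins. The adaptors switch on the RAS-RAF-MEK-ERK and PI3K-AKT cascades, which drive growth, survival and migration. Intestinal tumor cells depend to a varying degree on ErbB, MET and insulin-like growth factor receptors, and EGFR is a drug target in CRC. FGF and PDGF receptors are better known from the stroma, where fibroblasts respond to PDGF and send FGF7 and FGF10 to the epithelium.

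Levels are in TPM. The unit corrects for transcript length and gives each library about the same total, so values of different genes can be set side by side. TPM keeps no read numbers, so the depth behind a value is unknown, and a gene listed at 0 cannot be called absent. As labelled, Sema6a was listed at 0 in every control and reached 98.7, 118 and 112 TPM with SEMA6A overexpression. All 13 epithelial markers examined were under 1 TPM in every library, with Krt8 the highest at 0.39 TPM and Epcam, Cdx1 and Cdx2 listed at 0, so the defining epithelial genes of a colon cell were at or near 0 in these cells. Of 9 fibroblast markers, 6 passed 1 TPM in at least 1 library, led by Col3a1 at up to 176 TPM, and their summed level was 239 to 257 TPM in pLV-Control against 332 to 349 TPM in pLV-SEMA6A. That sum was carried by Col3a1 and Pdpn, both higher in pLV-SEMA6A by adjusted p, as was Col1a1 at a low level. The markers did not move as a set, since Dcn did not pass the test (means of 2.21 and 2.05 TPM) and Lum and Postn were near 0. Col1a2 (means of 0.42 and 0.87 TPM) and Fap (0.26 and 0.76 TPM) had higher means in pLV-SEMA6A, and Thy1 (1.05 and 0.55 TPM) a lower one. Col1a2, Fap and Thy1 were below the filter and not tested, and Fap overlapped between groups. The part of the fibroblast markers in the results was not tested. Leukocyte and endothelial markers stayed at 1.97 TPM (Cd68) and 0.54 TPM (Vwf) or less.

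A difference here is the mean log2(TPM + 1) of pLV-SEMA6A minus that of pLV-Control, a scale that understates the change of low genes. It was tested with limma over the 12510 genes whose mean reached 1 TPM, with Benjamini-Hochberg adjustment. DEGs are the genes with an adjusted p below 0.05 whose difference also exceeded 0.5 in size. Of the 45 genes, 26 were tested, 14 receptors and 12 ligands. The other 19 lay below the filter. Erbb4, Kit, Ror1, Ror2, Ret and Alk among receptors and Ereg and Tgfa among ligands, 8 genes in all, were listed at 0 in all 6 libraries, and the remaining 11 stayed at 0.99 TPM or less.

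Among the 26 tested genes, 1 was an upregulated DEG, the EGFR ligand Areg, where 5.12% of all tested genes were upregulated DEGs. The downregulated DEGs numbered 5, where 10.8% of all tested genes were downregulated DEGs, namely Csf1, Fgf10, Pdgfra, Pdgfrb and Fgfrl1. Fgf10 and Pdgfra passed the filter of 1 TPM only through the controls, where they were higher, so their calls add nothing to a reading of that count. At an adjusted p below 0.05 and any fold, 3 genes were higher and 10 lower in pLV-SEMA6A, and 13 did not pass. Of all tested genes, 19.5% were higher and 28.2% lower by that rule. In 15 of the 26 genes the libraries of the groups did not overlap, as in 58.5% of all tested genes. All DEGs split into 640 higher and 1347 lower, and into 1002 and 961 after centring of the library medians, which left 3 of the downregulated genes of the set and kept Areg. The median difference was −0.12 over the 26 genes and −0.06 over all tested genes. These are bulk libraries, so a change in every cell and a change in a share of the cells cannot be told apart.

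**Figure D1:**
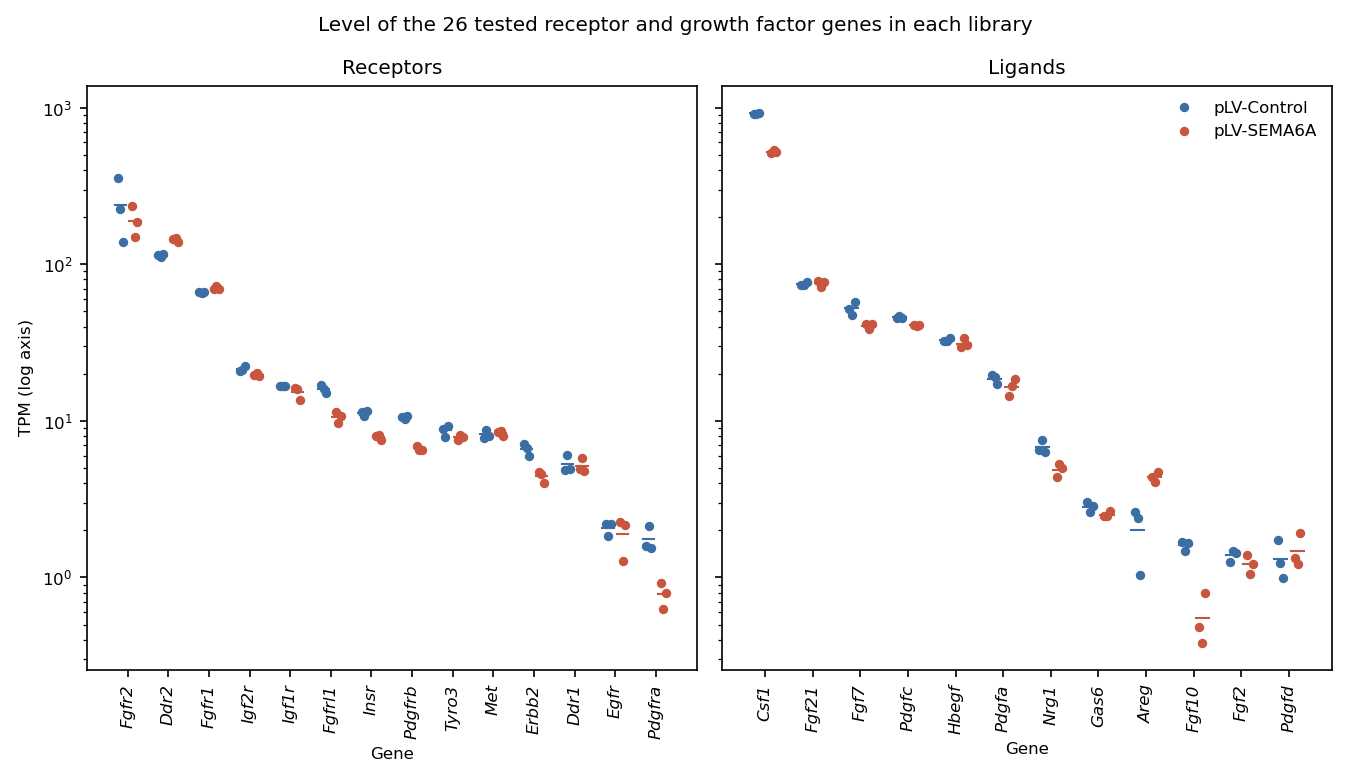
TPM on a log axis for the 14 tested receptors (left) and 12 tested ligands (right), ordered by their pLV-Control mean. Each point is a library, blue for pLV-Control and red for pLV-SEMA6A, and each bar is the mean of 3 libraries. Csf1 was far above every other ligand in both groups, Fgfr2 was the highest receptor with the widest spread, and the red points of Areg lay above the blue ones.

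**Figure D2:**
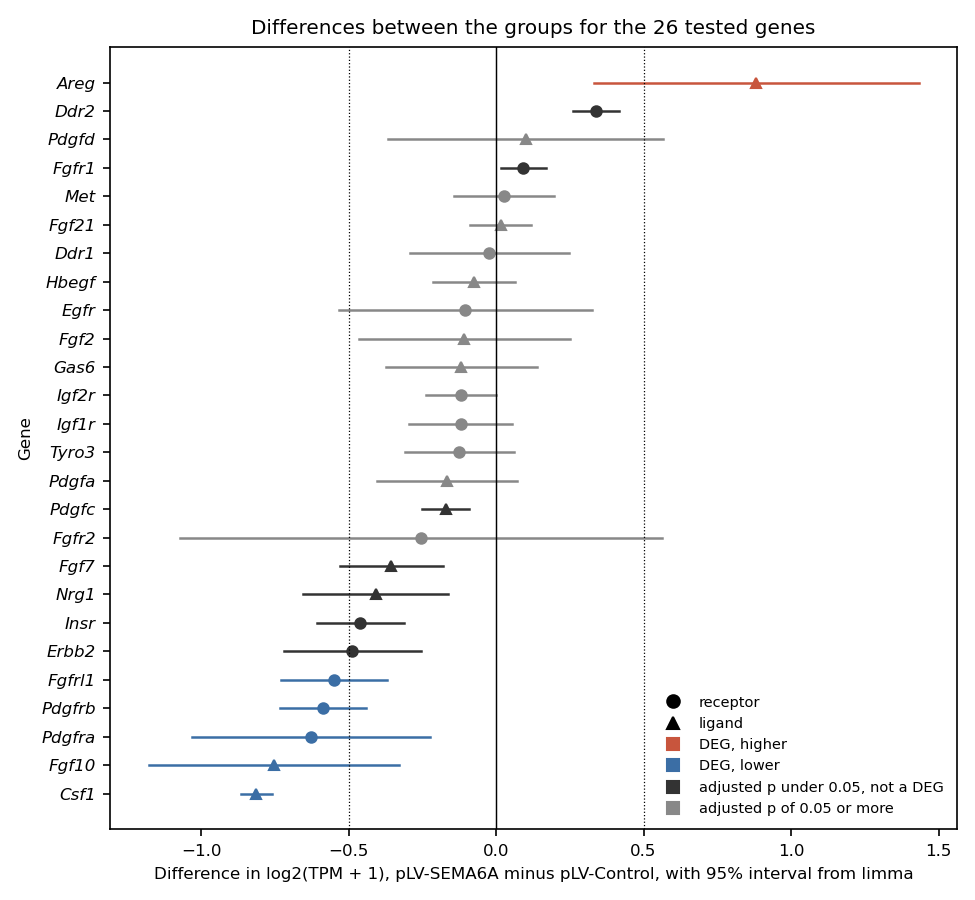
Difference in log2(TPM + 1), pLV-SEMA6A minus pLV-Control, for the 26 tested genes, with the 95% interval from limma. Circles are receptors, triangles are ligands, and dotted lines mark the minimum of 0.5 for a DEG. Areg was the 1 gene beyond the line on the right, 5 genes lay beyond the line on the left, and the intervals of 13 genes in gray belong to an adjusted p of 0.05 or more.

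The sequence just before the transcription start is printed for 3 of the DEGs: Areg, the only one that rose, and Csf1 and Fgfrl1, which fell and gave windows of a different make-up. They are RefSeq windows of 250 bases on GRCm38.p6, written 5′ to 3′ on the gene's strand. The capitals mark motifs searched on both strands, which were chosen after the values were seen. The motifs were a TATA box (TATAAA), the cyclic AMP response element or CRE (TGACGTCA), AP-1 (TGANTCA), GAS (TTCNNNGAA) and the GC box (GGGCGG), none of which overlap in these windows.
Areg, chr5:91139349-91139598, plus strand: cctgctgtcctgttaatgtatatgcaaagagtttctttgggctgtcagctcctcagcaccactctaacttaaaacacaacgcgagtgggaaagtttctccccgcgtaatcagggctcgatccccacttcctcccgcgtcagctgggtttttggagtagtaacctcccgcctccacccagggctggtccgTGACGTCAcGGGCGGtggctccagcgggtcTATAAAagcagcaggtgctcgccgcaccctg
Csf1, chr3:107760470-107760719, minus strand: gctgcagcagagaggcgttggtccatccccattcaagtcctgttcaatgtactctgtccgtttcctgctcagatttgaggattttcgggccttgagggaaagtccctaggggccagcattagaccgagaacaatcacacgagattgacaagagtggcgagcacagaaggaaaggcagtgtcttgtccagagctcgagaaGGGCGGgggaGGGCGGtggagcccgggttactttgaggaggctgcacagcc
Fgfrl1, chr5:108693979-108694228, plus strand: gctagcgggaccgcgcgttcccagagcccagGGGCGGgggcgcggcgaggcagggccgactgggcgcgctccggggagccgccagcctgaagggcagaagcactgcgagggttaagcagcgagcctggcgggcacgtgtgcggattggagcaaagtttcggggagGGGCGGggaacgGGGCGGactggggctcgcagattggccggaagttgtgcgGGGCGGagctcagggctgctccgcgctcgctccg
The Areg window held a CRE at position −61, a GC box at −52 and a TATA box at −31, counted from the start site. Of 32536 RefSeq windows of the same length, 1.56% held a CRE, 12.3% a TATA box and 33% a GC box. Csf1 had GC boxes at −51 and −41, and Fgfrl1 had them at −219, −85, −73 and −34, with no CRE or TATA box in either. AP-1 and GAS letters, in 6.73% and 7.04% of all windows, were found in none of the 3. RefSeq windows were examined for 21 of the 26 tested genes, and none was examined for the downregulated Pdgfrb. Of the 21 genes, Areg was the 1 gene with a CRE, 4 genes (Areg, Fgf21, Pdgfd and Ddr2) held a TATA box, and 14 held a GC box. The windows of the downregulated Fgf10 and Pdgfra are not printed. Fgf10 held 1 GC box, at −199, and Pdgfra held none of these motifs. A match in letters is a description and not evidence that a factor binds.

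In the ErbB family, the ligand Areg rose while its receptor Egfr did not pass the test, and the receptor Erbb2 and the ligand Nrg1 were lower without reaching the DEG minimum. Areg (amphiregulin, an EGFR ligand shed from the cell surface) was at 2.61, 2.39 and 1.04 TPM in pLV-Control replicates 1 to 3, against 4.39, 4.07 and 4.72 TPM in pLV-SEMA6A, the order kept for all values that follow. Every pLV-SEMA6A library was above every control, and control 3 lay well below the other controls. The means of 2.01 ± 0.85 and 4.39 ± 0.33 TPM (SD, n = 3 each) gave a difference of 0.88 (standard error 0.23, adjusted p = 0.0194 by limma). The call did not hold without pLV-SEMA6A 1 (adjusted p = 0.0533 by limma) or without pLV-SEMA6A 3 (adjusted p = 0.0612 by limma), or with no filter on low genes (adjusted p = 0.0547 by limma), while the difference stayed between 0.62 and 1.18.

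Egfr, the receptor for amphiregulin, was at 2.19, 1.84 and 2.19 TPM in pLV-Control against 2.25, 1.27 and 2.15 TPM in pLV-SEMA6A. The groups overlapped, and the interval of the difference ran from −0.53 to 0.32. Hbegf, a heparin-binding ligand of EGFR and ERBB4, was the most abundant ErbB ligand, at 32.2, 32.4 and 33.8 TPM against 29.5, 33.6 and 30.3 TPM. It also overlapped, with an interval of −0.21 to 0.06. Of the summed TPM of the 5 ErbB ligands in the set, Hbegf made up 78.8% ± 2.91 in pLV-Control and 77.0% ± 1.21 in pLV-SEMA6A. The share of Areg was 4.83% ± 2.02 and 10.9% ± 1.27 (SD, n = 3 each). The summed level of the 5 ligands itself was 41.6 ± 0.66 and 40.4 ± 2.41 TPM. ErbB ligands outside the set were left out of it and lay below the filter. Btc was at 0.60 to 0.98 TPM in pLV-Control against 0.16 to 0.36 TPM in pLV-SEMA6A. Egf (0.54 to 2.01 TPM over all libraries) and Nrg4 (0.37 to 0.88 TPM) overlapped between groups.

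Erbb2, the co-receptor that binds no ligand of its own, was at 7.13, 6.72 and 5.98 TPM in pLV-Control against 4.71, 4.56 and 4.01 TPM in pLV-SEMA6A. The groups did not overlap, and the difference of −0.49 (standard error 0.10, adjusted p = 0.0068 by limma) stopped just short of the minimum of 0.5. It passed that minimum with a pseudocount of 0.1 TPM (−0.57) and without pLV-Control 3, pLV-SEMA6A 1 or pLV-SEMA6A 2 (from −0.55 to −0.51). Nrg1 (neuregulin 1, the ligand of ERBB3 and ERBB4) was at 6.49, 7.59 and 6.34 TPM against 4.37, 5.30 and 4.97 TPM, lower in every pLV-SEMA6A library. Its difference was −0.41 (standard error 0.10, adjusted p = 0.0169 by limma), and the adjusted p from limma was above 0.05 without pLV-Control 2 (0.0534), with no filter (0.0543) and after quantile normalization (0.107). Neither of its receptors was present at a level that could be tested, since Erbb3 reached at most 0.12 TPM and Erbb4 was listed at 0. Of the receptor RNA of this family, Erbb2 held 75.5% ± 2.39 in pLV-Control and 70.2% ± 6.92 in pLV-SEMA6A (SD, n = 3 each), and nearly all the rest was Egfr.

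The FGF family had the most abundant receptor RNA of the 45 genes, and by adjusted p Fgfr1 was higher while Fgfrl1, Fgf7 and Fgf10 were lower in pLV-SEMA6A. Fgfr2, whose splice form in epithelia answers to FGF7 and FGF10, was at 353, 226 and 139.5 TPM in pLV-Control against 236, 148 and 187 TPM in pLV-SEMA6A. The libraries of one group spanned those of the other, and the interval of the difference, −1.07 to 0.56, allows a fall or a rise of some size. The spread of Fgfr2 within groups exceeded that of 99.4% of the 495 tested genes at a like level. Without pLV-Control 1, the highest library, the difference changed from −0.25 to 0.07. A small part of the gene, 2.69% of its transcript stretches of 31 bases, also occurs in other genes, mainly Ctbp2.

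Fgfr1, the receptor used by many FGFs, was tight by comparison, at 66.3, 65.3 and 66.8 TPM in pLV-Control against 69.9, 72.5 and 69.5 TPM in pLV-SEMA6A. All pLV-SEMA6A libraries were higher, by 0.09 (standard error 0.03, adjusted p = 0.0490 by limma). That call is marginal, since the adjusted p from limma was between 0.0669 and 0.131 when any library was left out. Fgfr3 stayed at 0.91 TPM or less and Fgfr4 at 0.17 TPM or less. In each library Fgfr2 was therefore the largest FGF receptor, with 76.3% ± 8.39 of the summed level in pLV-Control and 72.2% ± 4.97 in pLV-SEMA6A (SD, n = 3 each).

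**Figure D3:**
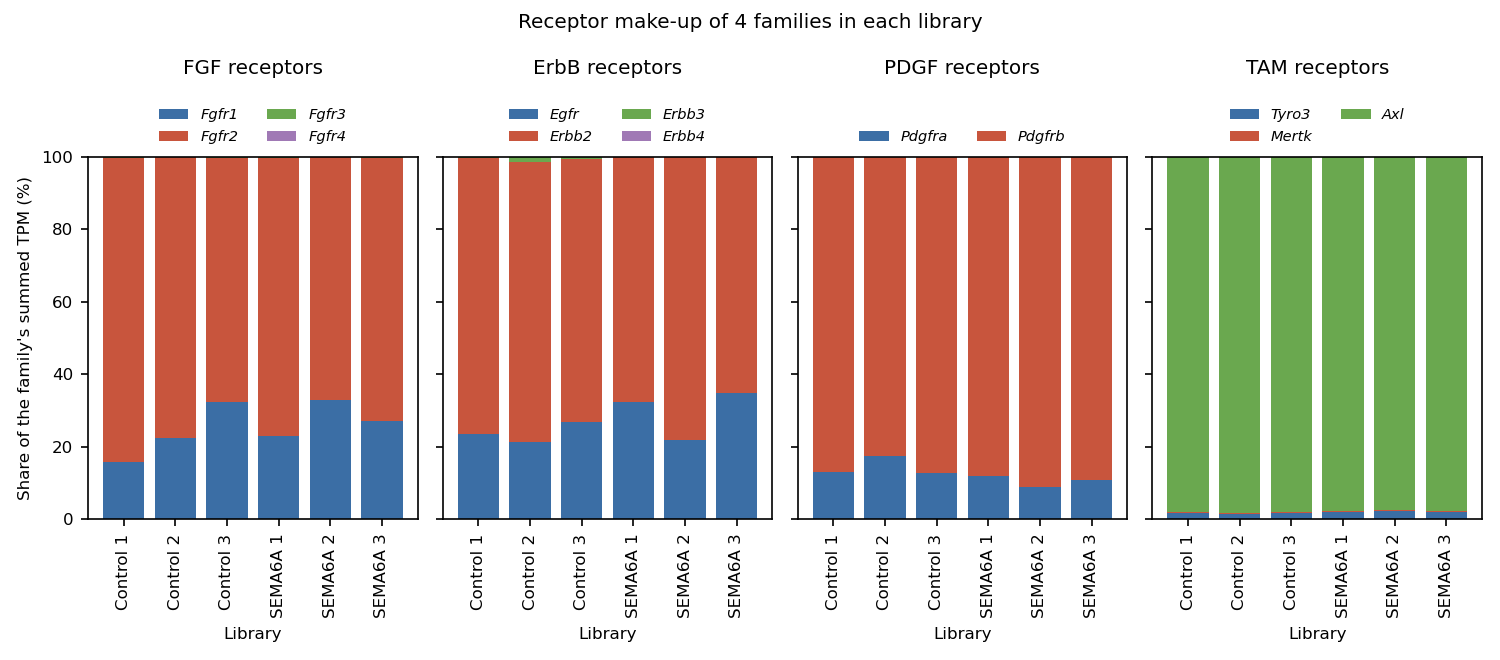
Share of the summed TPM of 4 receptor families held by each receptor, with a stacked bar for each of the 6 libraries. Fgfr2, Erbb2, Pdgfrb and Axl were the main receptor of their family in every library, and the Fgfr2 share differed more among the control libraries (67.4% to 84.02%) than between the group means.

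Fgfrl1 is a receptor that binds FGFs and lacks the kinase domain. It fell from 16.8, 16.0 and 15.02 TPM in pLV-Control to 11.4, 9.72 and 10.7 TPM in pLV-SEMA6A, with no overlap. The difference was −0.55 (standard error 0.07, adjusted p = 0.0014 by limma). The adjusted p stayed under 0.05 in every alternative tried, but the size dropped under 0.5 when the library medians were centred (−0.46), after quantile normalization (−0.43) and without pLV-SEMA6A 2 (−0.49).

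Among FGF ligands, Fgf10 fell, Fgf7 was lower by less than the minimum, and Fgf21 and Fgf2 did not pass. Fgf10, a mesenchymal ligand of FGFR2, was low throughout, at 1.68, 1.47 and 1.65 TPM in pLV-Control against 0.48, 0.38 and 0.79 TPM in pLV-SEMA6A. The lowest control was above the highest pLV-SEMA6A library, and the difference was −0.75 (standard error 0.18, adjusted p = 0.0130 by limma). Fgf10 passed the filter of 1 TPM only through its control libraries, and fell below it whenever a control was left out. With a pseudocount of 0.1 TPM the difference was −1.43. Fgf7 (keratinocyte growth factor) was at 51.8, 47.7 and 57.5 TPM against 41.7, 38.5 and 41.6 TPM. Its libraries did not overlap, and the difference was −0.36 (standard error 0.07, adjusted p = 0.0078 by limma).

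Fgf21, a metabolic hormone that needs the co-receptor beta-Klotho, was the most abundant FGF ligand. It was at 73.6, 73.5 and 77.3 TPM in pLV-Control against 78.4, 71.9 and 76.8 TPM in pLV-SEMA6A, overlapping throughout, with an interval of −0.09 to 0.12. Klb, which encodes beta-Klotho, was at 0.05 TPM or less. Fgf2 (basic FGF) was at 1.25, 1.48 and 1.44 TPM against 1.39, 1.05 and 1.22 TPM, with an interval of −0.47 to 0.25. Exons of Nudt6 on the opposite strand cover 9.44% of its exon bases, and reads of the pair cannot be told apart unless the libraries kept strand, which is not stated. Fgf1 reached 0.84 TPM and Fgf18 0.08 TPM.

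Of the PDGF receptors, Pdgfrb fell, and the call of the scarce Pdgfra depended on the fit. Of their ligands, Pdgfc was lower by less than the DEG minimum, and Pdgfa and Pdgfd did not pass the test. Pdgfrb, the receptor of PDGF-B and PDGF-D, was at 10.6, 10.2 and 10.7 TPM in pLV-Control against 6.92, 6.54 and 6.53 TPM in pLV-SEMA6A. Only 3.43% of the 1952 tested genes at a like level had a smaller spread within groups, and the groups were far apart. The means of 10.5 ± 0.27 and 6.66 ± 0.22 TPM (SD, n = 3 each) gave a difference of −0.59 (standard error 0.06, adjusted p = 0.0004 by limma). It remained under an adjusted p of 0.05 in all alternatives, with a size under 0.5 after centring on library medians (−0.49) and quantile normalization (−0.44).

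Pdgfra, the receptor of PDGF-A and PDGF-C, was lower in level, at 1.59, 2.14 and 1.54 TPM in pLV-Control against 0.92, 0.63 and 0.79 TPM in pLV-SEMA6A. The groups did not overlap, and the difference of −0.63 (standard error 0.17, adjusted p = 0.0219 by limma) made it a DEG. Like Fgf10 it passed the filter only through the controls, and a pseudocount of 0.1 TPM moved the difference to −1.08. The call was lost without pLV-Control 2 (adjusted p = 0.0731 by limma), without pLV-SEMA6A 2 (0.0596) or 3 (0.0511), and after quantile normalization (0.0708). Opposite-strand exons of Gm42802 and Gm42803 cover 6.21% of its exon bases. The summed level of both receptors was 12.3 ± 0.08 TPM in pLV-Control against 7.44 ± 0.35 TPM in pLV-SEMA6A (SD, n = 3 each), with Pdgfrb at 85.7% ± 2.63 and 89.6% ± 1.51 of it.

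Pdgfc was the most abundant PDGF ligand, at 45.6, 46.8 and 45.3 TPM in pLV-Control against 40.8, 40.1 and 41.1 TPM in pLV-SEMA6A. The libraries did not overlap, and the difference was small at −0.17 (standard error 0.03, adjusted p = 0.0062 by limma), and −0.08 (adjusted p = 0.112 by limma) when library medians were centred. Pdgfa, at 19.7, 19.0 and 17.2 TPM against 14.3, 16.8 and 18.4 TPM, overlapped between groups and had an interval of −0.40 to 0.07. Its value is uncertain, because exons of 6330403L08Rik on the opposite strand cover 26.1% of its exon bases. That gene was listed at a lower level than Pdgfa, at 1.00 to 1.72 TPM over all libraries. Pdgfd was at 1.73, 1.24 and 0.99 TPM against 1.33, 1.21 and 1.91 TPM, again overlapping, with an interval of −0.37 to 0.57. Pdgfb, the ligand that binds both receptors, was at 0.09 to 0.14 TPM in pLV-Control and at 0.02 TPM or listed at 0 in pLV-SEMA6A, too low to test.

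In the insulin-like growth factor family the receptors were present while Igf1 and Igf2 were near 0. Insr (the insulin receptor) was at 11.4, 10.8 and 11.6 TPM in pLV-Control against 7.98, 8.13 and 7.58 TPM in pLV-SEMA6A. All pLV-SEMA6A libraries were lower, with a difference of −0.46 (standard error 0.06, adjusted p = 0.0012 by limma), which is under the DEG minimum. A pseudocount of 0.1 TPM brought it just past 0.5. Igf1r, the receptor of IGF1 and IGF2, was at 16.7, 16.6 and 16.8 TPM against 16.3, 16.0 and 13.7 TPM. Its libraries did not overlap, but the interval of −0.30 to 0.05 spans 0, with pLV-SEMA6A 3 below the others. Igf2r, which is no kinase and carries IGF2 to lysosomes, was at 20.9, 21.1 and 22.5 TPM against 19.5, 20.3 and 19.2 TPM, a difference of −0.12 (adjusted p = 0.0874 by limma). Igf1 and Igf2 were at 0.04 TPM or less in every library.

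Met, the receptor of hepatocyte growth factor, was at 7.78, 8.71 and 8.05 TPM in pLV-Control against 8.53, 8.56 and 7.95 TPM in pLV-SEMA6A. The groups overlapped and the interval was −0.14 to 0.19, so a change of the size seen for Pdgfrb lies outside it. Its ligand Hgf stayed at 0.16 TPM or less and the related receptor Mst1r at 0.03 TPM or less. The discoidin domain receptors are activated by collagen. Ddr2, the form typical of mesenchymal cells, was at 114, 111 and 116 TPM in pLV-Control against 145, 147.5 and 139.6 TPM in pLV-SEMA6A. It was higher in every pLV-SEMA6A library, by 0.34 (standard error 0.03, adjusted p = 0.0003 by limma), less than a DEG requires. Ddr1, typical of epithelia, was at 4.87, 6.04 and 4.93 TPM against 4.93, 5.79 and 4.80 TPM, with overlapping groups and an interval of −0.29 to 0.25. The collagen gene Col3a1, from the fibroblast markers, was likewise higher, from a mean of 119 TPM to one of 172 TPM.

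The TAM receptors recognise Gas6 and protein S, which bridge them to phosphatidylserine on dying cells. Tyro3 was at 8.93, 7.92 and 9.23 TPM in pLV-Control against 7.54, 8.15 and 7.94 TPM in pLV-SEMA6A, with overlap and an interval of −0.31 to 0.06. Mertk was under the filter, at 0.49 to 0.61 TPM against 0.75 to 0.99 TPM, higher in each pLV-SEMA6A library and not tested. Gas6 was at 3.02, 2.61 and 2.84 TPM against 2.45, 2.46 and 2.65 TPM, with an interval of −0.37 to 0.14. Pros1, the gene of protein S and not among the 45, was more abundant than Gas6, with means of 6.01 and 6.36 TPM. Its groups overlapped, with an interval of −0.27 to 0.42, and its pairs are not among those examined below. The remaining TAM receptor, Axl, is not among the 45 genes, but it carried 98.3% ± 0.13 of the TAM receptor level in pLV-Control and 97.7% ± 0.09 in pLV-SEMA6A (SD, n = 3 each). Axl was at 514, 518 and 529 TPM in pLV-Control against 375, 377 and 378 TPM in pLV-SEMA6A, with no overlap and a difference of −0.46 (standard error 0.02, under the DEG minimum). Quantile normalization gave Axl −0.51, past that minimum.

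Csf1 (macrophage colony-stimulating factor) was the most abundant of the 45 genes in every library, and its fall was the largest of the set on the log2(TPM + 1) scale. The ratio of group means was lower for the scarce genes Fgf10 (0.34) and Pdgfra (0.44) than for Csf1 (0.57). Csf1 was at 909, 916 and 931 TPM in pLV-Control against 515, 535 and 518 TPM in pLV-SEMA6A. The groups were separated by far more than the spread of either. The means of 919 ± 11.3 and 523 ± 10.9 TPM (SD, n = 3 each) gave a difference of −0.81 (standard error 0.02, adjusted p = 2.3e-06 by limma). In the 11 other fits the difference lay between −0.83 and −0.72 and Csf1 stayed a DEG. The 20 ligands together summed to 1160.1 ± 14.9 TPM in pLV-Control against 743 ± 8.42 TPM in pLV-SEMA6A, and to 241 ± 4.45 and 220.3 ± 4.70 TPM when Csf1 was left out (SD, n = 3 each). The receptor of CSF1, Csf1r, was at 0.64 TPM or less in all libraries. Il34, the other known ligand of that receptor and not among the 45 genes, fell from 22.1, 24.1 and 19.9 TPM to 12.9, 14.4 and 14.3 TPM, by 0.63 on the log2 scale (standard error 0.08, adjusted p = 0.0011 by limma). Csf1 held 97.7% ± 0.24 and 97.4% ± 0.12 of the level of these ligands in the respective groups (SD, n = 3 each).

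To set ligands beside receptors, 36 pairs known to bind were examined, and a pair was counted as present in a group when both genes were at 1 TPM or more in each of its libraries. This held for 11 pairs in pLV-Control and 9 in pLV-SEMA6A. In the other 25 pairs in pLV-Control and 27 in pLV-SEMA6A, at least 1 partner was under 1 TPM in some library. The pairs Areg with Egfr, Hbegf with Egfr, Fgf2 with Fgfr1 and with Fgfr2, and Fgf7 with Fgfr2 were present in both groups. So were Fgf21 with Fgfr1, and Gas6 with Tyro3 and with Axl. Presence by this count refers to RNA of the gene and does not mean that a pair can signal. TPM per gene does not show which splice form of Fgfr2 was made, which bears on its pairs with Fgf7 and Fgf10. For Fgf21, the co-receptor gene Klb was at 0.05 TPM or less. Fgf10 with Fgfr2, Pdgfa with Pdgfra and Pdgfc with Pdgfra were present in pLV-Control only by this count, because Fgf10 and Pdgfra were under 1 TPM in pLV-SEMA6A. Pdgfd with Pdgfrb was present in pLV-SEMA6A only, where the control value of 0.99 TPM for Pdgfd decided the count, and this difference is not larger than the spread. With 0.5 TPM as the minimum the counts were 13 and 12, and with 2 TPM they were 4 and 4.

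**Figure D4:**
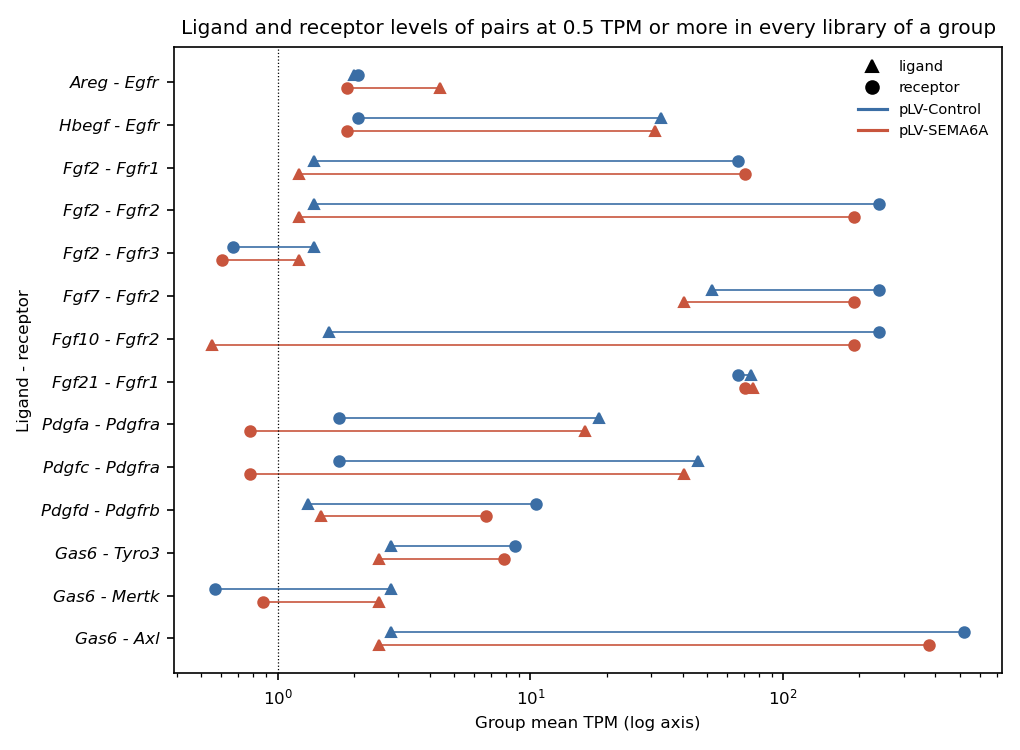
Mean TPM per group on a log axis for the ligand (triangle) and the receptor (circle) of the 14 pairs that reached 0.5 TPM in every library of at least 1 group, blue for pLV-Control and red for pLV-SEMA6A. The dotted line marks 1 TPM. For Areg and Egfr the symbols coincided in pLV-Control and lay apart in pLV-SEMA6A, while the Pdgfra circles and the Fgf10 triangle crossed the line.

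Levels of partners were often unequal. In the pair of Areg and Egfr, the ligand mean was 2.01 TPM and the receptor mean 2.07 TPM in pLV-Control, and 4.39 and 1.89 TPM in pLV-SEMA6A. For Gas6 and Axl, a ligand mean of 2.82 TPM stood beside a receptor mean of 520.3 TPM in pLV-Control. For Csf1 and Csf1r it was the reverse, with 919 TPM of ligand beside 0.33 TPM of receptor. A pair could be missing from either side. Csf1 and Nrg1 were present with their receptors under 1 TPM, while Met, Igf1r and Insr were present with their ligands of the set near 0.

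Other receptors and ligands of the same pathways were read from lists of 16 and 28 genes that are not among the 45. Of 4 tested receptors, 1 was a downregulated DEG. Gfra1, the co-receptor that presents GDNF to RET, fell from 8.0, 9.72 and 7.41 TPM to 3.24, 2.85 and 2.59 TPM, by 1.26 on the log2 scale (standard error 0.12, adjusted p = 0.0003 by limma). Its ligand Gdnf fell as well, from a mean of 53.2 to 33.3 TPM, by 0.66 (adjusted p = 9.3e-05 by limma). The kinase of that complex, Ret, was listed at 0 in all libraries. Of 9 tested ligands, 3 were upregulated and 3 downregulated DEGs, where the shares over all tested genes were 5.12% and 10.8%. Among the upregulated ligands were Ptn (pleiotrophin, a heparin-binding growth factor for which ALK is a described receptor) and Artn (artemin, which signals through GFRA3 and RET). Ptn was at 7.64, 7.08 and 6.70 TPM against 23.8, 21.9 and 19.2 TPM, a difference of 1.47 (standard error 0.09). Artn was at 4.29, 3.46 and 4.53 TPM against 10.5, 8.62 and 8.42 TPM. The receptors Alk and Gfra3 were listed at 0. Besides Gdnf and Il34, the downregulated ligand was Flt3l (a mean of 12.4 against 7.44 TPM), whose receptor Flt3 was also near 0.

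Genes that work downstream of the receptors were read from a list of 43 adaptors, cascade kinases and brakes, of which 42 were tested. Hras, a RAS GTPase, was the 1 upregulated DEG, and 4 were downregulated DEGs, beside 5.12% and 10.8% of all tested genes. By adjusted p alone, 9 were higher and 15 lower, and 18 did not pass, where 19.5% and 28.2% of all tested genes were higher and lower. These counts lie near the shares over all genes, and the median difference was −0.05 over the list, beside −0.06 over all tested genes. Hras rose from 39.6, 39.8 and 39.6 TPM in pLV-Control to 66.9, 65.2 and 63.7 TPM in pLV-SEMA6A, a difference of 0.70 (standard error 0.03, adjusted p = 1.9e-05 by limma). The other way, Cblb, a ubiquitin ligase that marks activated receptors for removal, fell from 5.76, 5.92 and 6.81 TPM to 3.02, 2.98 and 2.55 TPM, by 0.90 on the log2 scale (standard error 0.10, adjusted p = 0.0007 by limma). Gab2, a docking protein between receptors and PI3K, fell from 8.27, 7.22 and 7.80 TPM to 4.72, 4.51 and 4.25 TPM, by 0.67 (standard error 0.08).

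The scaffold Ksr1 and the FGF receptor adaptor Frs3 were also downregulated DEGs, with less certain values. Ksr1 was at 4.88, 3.92 and 5.24 TPM against 2.23, 3.35 and 2.27 TPM, and its call was lost when pLV-Control 1, pLV-Control 3 or pLV-SEMA6A 3 was left out (adjusted p between 0.0504 and 0.0555 by limma). Frs3 was at 7.52, 4.49 and 3.82 TPM against 2.97, 2.89 and 2.79 TPM, so the difference of −0.65 leaned on pLV-Control 1, and without that library it was −0.41. The call of Frs3 was lost in 5 of the 6 fits that left out a library. Among kinases of the cascade, named here after their values were seen, Map2k1 and Mapk3 were lower and Map2k2 higher by adjusted p, with differences of −0.33, −0.29 and 0.31, all under the DEG minimum. The survival kinase Akt1 was likewise higher by adjusted p, with a difference of 0.29.

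**Figure D5:**
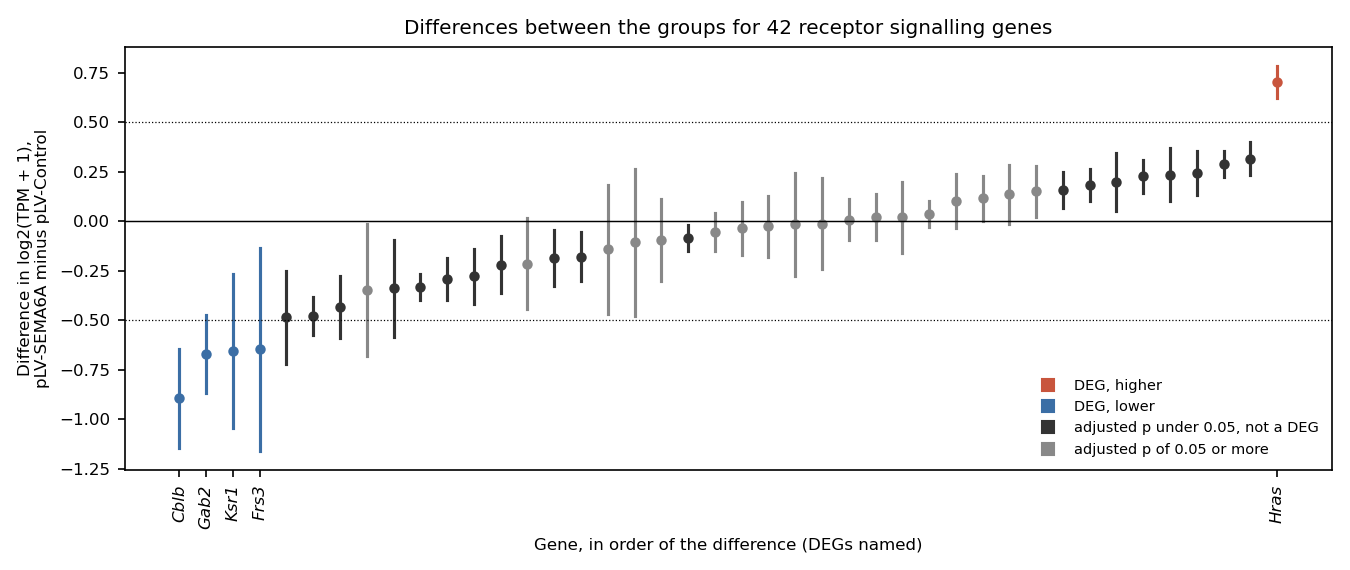
Difference in log2(TPM + 1), pLV-SEMA6A minus pLV-Control, with the 95% interval from limma, for the 42 tested genes of the signalling list in order of size. Dotted lines mark 0.5 in each direction, and the DEGs are named. Hras was alone above the upper line, and Cblb, Gab2, Ksr1 and Frs3 lay under the lower one.

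Proteins that release, trap or present growth factors were read from a list of 24, of which 16 were tested, with 1 upregulated and 2 downregulated DEGs. Those counts are near the 5.12% and 10.8% of all tested genes. Igfbp6, a binding protein that prefers IGF2, rose from 123, 129 and 123 TPM to 295, 299.9 and 315 TPM, a difference of 1.27 (standard error 0.03, adjusted p = 2.4e-06 by limma). Igfbp7, a related secreted protein, went the other way, from 244, 260 and 221 TPM to 107, 110.2 and 117 TPM, a fall of 1.11 on the log2 scale (standard error 0.06). The libraries of both were fully separated. Gpc4, a heparan sulfate proteoglycan that holds FGFs, fell from 8.07, 7.36 and 8.69 TPM to 3.23, 3.68 and 2.60 TPM. The fall was 1.12 (standard error 0.12, adjusted p = 0.0005 by limma). The related and more abundant Gpc1, named after its value was seen, went the other way, from a mean of 34.9 TPM to one of 48.7 TPM. Its difference of 0.47 (adjusted p = 0.0003 by limma) was under the DEG minimum. Adam17, the sheddase that frees amphiregulin and HB-EGF, named after its value was seen, did not pass the test, with means of 34.7 and 36.5 TPM.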

How the data were processed

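Poly-A-selected RNA from SL4 cells was sequenced on an Illumina platform, in 3 libraries per group. The authors deposited TPM for each library with 2 decimals, and the mean TPM of each group, which was not used. The unit is read from the values, since the file header names none. The submitters' processing notes name HISAT, Bowtie2, RSEM and mm39, with no versions, and the study's supplement names DESeq2 for its own comparison. Reads per gene were not used here, so no count model was run.

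log2(TPM + 1) was fitted with limma 3.58.1 (trend option, R 4.3.3) with a term for group, over 12510 genes whose mean reached 1 TPM. Calls needed a Benjamini-Hochberg adjusted p under 0.05 and a size over 0.5. The fit was tested on simulated data. An exact permutation test of 3 against 3 libraries cannot go below p = 0.1. The members and lists, and the pairs, were chosen with earlier results of these data known. Members with a mean of at least 1 TPM in either group are given by library, and called genes of the lists are named, at most 5 per direction. Some listed genes count in the totals but are not reported here by name. Alternatives were another pseudocount, no filter, 2 other scalings, the replicate block, other fold minimums and each library left out. Shared stretches and antisense exons were computed from GENCODE M21 and promoters from RefSeq, both on GRCm38 and not mm39, so no other positions are given.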

Additional observations from a re-analysis of the deposited data

How the results depend on the processing

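The minimum fold change moved the counts most. Without it 5959 of all tested genes passed (members 3 higher and 10 lower, signalling genes 24, ligand processing genes 10), and with a minimum of 1 it was 385 genes, with 0 members in either direction (3 higher and 10 lower at any fold by limma) and 0 signalling genes. With no filter on low values 0 members were called higher by limma, against 1. Centring library medians left 3 members called lower and turned the split of all DEGs from 640 higher and 1347 lower into 1002 and 961, and quantile normalization left 2 and gave 886 and 943. Quantile normalization also left 3 signalling genes called. With each library left out in turn, members called higher ranged from 0 to 1, members called lower from 3 (without pLV-Control 2) to 6, and signalling genes from 3 (without pLV-Control 1 or pLV-SEMA6A 3) to 5. At a minimum of 2 TPM, 4 pairs were present in pLV-Control and 4 in pLV-SEMA6A.

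Over 11 alternatives to the 26 fold changes, 248 of 283 values kept direction and call, and 17 in 10 genes changed direction, none of them a called gene. Of 63 values of the 6 called members, 13 lost the call. Quantile normalization gave 0.072 for Egfr, 0.057 for Fgf2, −0.010 for Fgf21, 0.028 for Tyro3, 0.080 for Gas6 and 0.15 for Ddr1, and centring gave 0.017 for Hbegf and 0.070 for Ddr1. With a library left out, the difference ranged from −0.20 to 0.060 for Egfr, −0.59 to 0.075 for Fgfr2, −0.0093 to 0.052 for Fgf21, −0.020 to 0.22 for Pdgfd, −0.0049 to 0.068 for Met and −0.094 to 0.062 for Ddr1. Fgf10 could not be fitted when any pLV-Control library was left out, since it then fell below the filter. For 16 listed genes outside the 45, an alternative added after the data were seen, 162 of 176 values kept direction and call and 13 lost the call, in Frs3 and Ksr1. The causes were not tested. Libraries with the same replicate number did not deviate together (correlations −0.02, −0.08 and −0.07). No pairing by number was visible, but 3 libraries per group cannot show that there was none. A replicate block gave 1924 DEGs (623 higher and 1301 lower), Pdgfra lost its call (adjusted p = 0.0681 by limma) and Ksr1 its own (0.0508), and the other called members kept theirs. TPM keeps no depth, so no detection limit could be set for the genes listed at 0.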
